A study of Mus musculus with 2 samples.

Results

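The 7 small nucleolar RNA (snoRNA) host genes Gas5, Snhg1, Snhg3, Snhg5, Snhg6, Snhg8 and Snhg12 were taken by symbol from the 23284 gene symbols listed for each RNA-seq library, and all 7 had a row. Every host gene was listed at a higher level in ESAM-null than in WT cells, with ratios between 1.08 for Snhg8 and 1.87 for Snhg3. None reached 2-fold. Of all genes with at least 10 FPKM, the unit of level used here, 56.0% were also higher. Of those with transcripts up to 1000 bases, 80.9% were. For Snhg8 and Snhg12 the difference did not exceed counting error. Snhg1, Snhg3 and Snhg6 were at least 1.5-fold higher. So were 14.6% of all genes with at least 10 FPKM. Among those with transcripts up to 1000 bases, which include Snhg1, Snhg3 and Snhg6, the share was 40.5%. With library upper quartiles, or totals, set equal, 6 and 5 of the 7 remained higher. So did 41.1% and 33.8% of the genes with 10 FPKM. Only Snhg3 then stayed past 1.5-fold, beside 6.68% and 4.74% of those genes. Genes with short transcripts were also higher in ESAM-null as a class, and 5 of the 7 host genes belong to the class of the shortest transcripts.

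RNA-seq compared LSK CD48- cells, which lack lineage markers and CD48, carry Sca-1 and c-Kit and are enriched for hematopoietic stem cells (HSCs), from fetal liver (FL) of WT and ESAM-null mouse fetuses at E14.5 of gestation. ESAM is an adhesion molecule of endothelial cells and HSCs, and the question was which genes change in HSCs that lack it. The ESAM-null fetuses carry no functional Esam allele in any cell, so cells around the HSCs also lacked ESAM. There was 1 library per genotype, and how many fetuses or cells went into it is not stated in the sources used here. The labels also place the sorted cells in methylcellulose colony medium, whereas the paper names LSK CD48- cells with no culture step for these libraries, and the values were read as those of the sorted cells. With 1 library per genotype, no difference below has a replicate check and no p-value can be given.

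snoRNA host genes are transcribed by RNA polymerase II and spliced, and the snoRNAs are trimmed out of the removed introns. The box C/D snoRNAs guide methylation of ribosomal RNA and the box H/ACA snoRNAs guide its pseudouridylation, so these genes serve ribosome production. The spliced exons carry no long reading frame. Many of them start with a run of pyrimidines, as mRNAs of ribosomal proteins do, and are degraded in the cytoplasm by nonsense-mediated decay. FPKM values count the spliced and unspliced host RNA and not the mature snoRNAs, which lack the poly(A) tail from which the cDNA was primed.

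In the mouse genome build GRCm38, the same build as mm10, Gas5 lies on chromosome 1 from 161034422 to 161038539 (plus strand) and Snhg1 on chromosome 19 from 8723475 to 8726443 (plus strand). Snhg3 (132348014 to 132353686, minus strand) and Snhg12 (132308623 to 132311024, plus strand) are neighbours on chromosome 4. Snhg5 lies on chromosome 9 from 88521050 to 88522929 (minus strand), Snhg6 on chromosome 1 from 9941959 to 9944118 (minus strand) and Snhg8 on chromosome 3 from 123507552 to 123508404 (minus strand). GENCODE M21 places 27 snoRNA genes inside them, 9 in Gas5, 8 in Snhg1, 4 in Snhg12, 2 each in Snhg3 and Snhg5, and 1 each in Snhg6 and Snhg8. All 27 are intronic in the spliced form with the most exons. In other annotated forms introns are kept. The RefSeq-matched Gas5 form of 2556 bases has 4 exons, which hold 6 of the 9 snoRNAs, and the RefSeq-matched Snhg8 form of 776 bases has a single exon that holds Snora24.

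**Figure D1:**
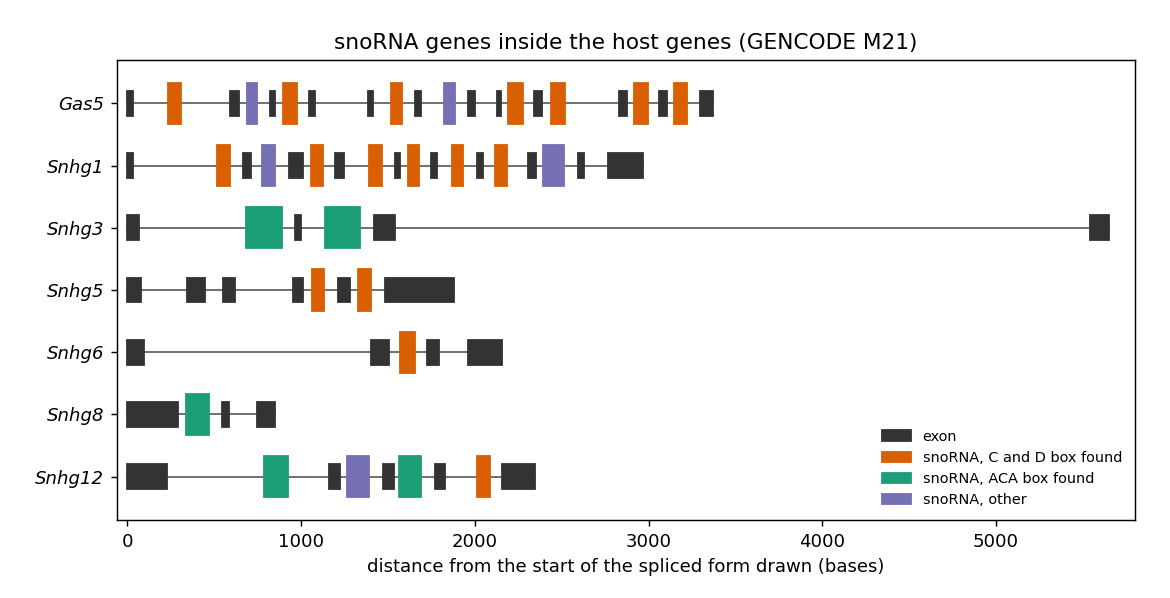
Map of the 7 host genes in the spliced form with the most exons, drawn 5′ to 3′ in bases from the start of that form. Dark boxes are exons, thin lines introns and tall coloured boxes the 27 snoRNA genes by box class, and each coloured box sits between exons.

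Of the 27 snoRNAs, which are 60 to 205 bases long, 17 hold both a C box (searched as TGATGA) and a D box (CTGA), 5 hold an ACA near the 3′ end and 5 hold neither full set. The following sequences show the products for which each host is known, in DNA letters from GENCODE M21 transcripts on GRCm38, with the boxes found in capitals.
Snord47 (inside Gas5, chr1:161038082-161038158, plus strand): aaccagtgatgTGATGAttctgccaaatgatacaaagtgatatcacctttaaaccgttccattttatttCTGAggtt
Snord22 (inside Snhg1, chr19:8725866-8725991, plus strand): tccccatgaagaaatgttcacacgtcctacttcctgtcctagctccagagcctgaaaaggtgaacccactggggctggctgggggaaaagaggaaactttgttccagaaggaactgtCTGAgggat
Snora73a (inside Snhg3, chr4:132352775-132352979, minus strand): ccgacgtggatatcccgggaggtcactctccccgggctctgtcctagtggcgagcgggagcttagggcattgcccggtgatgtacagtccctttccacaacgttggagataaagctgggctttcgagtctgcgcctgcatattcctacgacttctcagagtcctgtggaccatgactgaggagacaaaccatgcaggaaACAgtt
Snord50a (inside Snhg5, chr9:88521529-88521600, minus strand): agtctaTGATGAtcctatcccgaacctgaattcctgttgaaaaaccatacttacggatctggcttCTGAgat
Snord50b (inside Snhg5, chr9:88521797-88521868, minus strand): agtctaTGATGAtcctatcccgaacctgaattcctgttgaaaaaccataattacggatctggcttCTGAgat
Snord87 (inside Snhg6, chr1:9942463-9942549, minus strand): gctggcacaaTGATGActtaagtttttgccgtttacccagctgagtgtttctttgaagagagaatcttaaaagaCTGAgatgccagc
Snora24 (inside Snhg8, chr3:123507937-123508066, minus strand): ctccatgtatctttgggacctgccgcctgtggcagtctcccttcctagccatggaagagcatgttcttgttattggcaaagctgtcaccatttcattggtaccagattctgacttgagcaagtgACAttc
Snora61 (inside Snhg12, chr4:132310240-132310369, plus strand): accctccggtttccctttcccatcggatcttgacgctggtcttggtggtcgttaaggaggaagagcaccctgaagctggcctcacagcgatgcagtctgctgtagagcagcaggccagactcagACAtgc
Snord99 (inside Snhg12, chr4:132310691-132310764, plus strand): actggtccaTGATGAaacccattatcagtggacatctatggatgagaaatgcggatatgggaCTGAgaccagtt
Snora73a is the snoRNA needed for cleavage of the ribosomal RNA precursor, and its neighbour Snora73b in the next intron of Snhg3 is 96.6% identical over 205 bases. The Snhg5 pair Snord50a and Snord50b differ at a single base of 72, C50A, counted from the 5′ end of Snord50a. Only Snhg12 among the 7 holds both classes.

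The host genes were expressed at middle to high levels in both libraries. All 7 were above 10 FPKM in each, against a median of 13.5 FPKM in WT and of 12.5 FPKM in ESAM-null over the 12066 genes with at least 1 FPKM in either library. FPKM divides the fragments of a gene by its exon length in kilobases and by the library's fragment number, so genes of different length can be set side by side. The annotation behind the deposited values is not stated, so the order of levels between genes is approximate. Counting intervals (exact, 95%) were computed from approximate reads, which were recovered from the size of the step that 1 read makes in low FPKM values. They leave out every error other than counting, and PCR copies of a molecule are counted as if they were separate. The level intervals of Gas5 assume its form of 2556 bases, while its annotated forms range from 346 to 2556 bases.

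In the WT library Snhg1 was listed at 125 FPKM, Snhg6 at 116 FPKM and Gas5 at 89.2 FPKM. The middle of the order was taken by Snhg5 at 65.0 FPKM and Snhg3 at 62.5 FPKM, and the lowest were Snhg12 at 37.6 FPKM and Snhg8 at 26.1 FPKM. The counting intervals of neighbours overlapped for Snhg1 and Snhg6 (114 to 136 and 101 to 132 FPKM) and for Snhg5 and Snhg3 (59.4 to 71.0 and 52.6 to 73.8 FPKM), and for no other neighbours in this order. The highest WT level was 4.78 times the lowest. In the ESAM-null library the order was the same except that Snhg3 stood above Snhg5. Snhg1 was listed at 196 FPKM, Snhg6 at 184 FPKM, Gas5 at 125 FPKM, Snhg3 at 117 FPKM, Snhg5 at 91.6 FPKM, Snhg12 at 45.1 FPKM and Snhg8 at 28.2 FPKM. There the intervals of Snhg1 and Snhg6 (183 to 210.0 and 166 to 204 FPKM) and those of Gas5 and Snhg3 (121 to 129.8 and 104 to 132 FPKM) overlapped. The spread of levels was wider, with the highest 6.95 times the lowest.

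**Figure D2:**
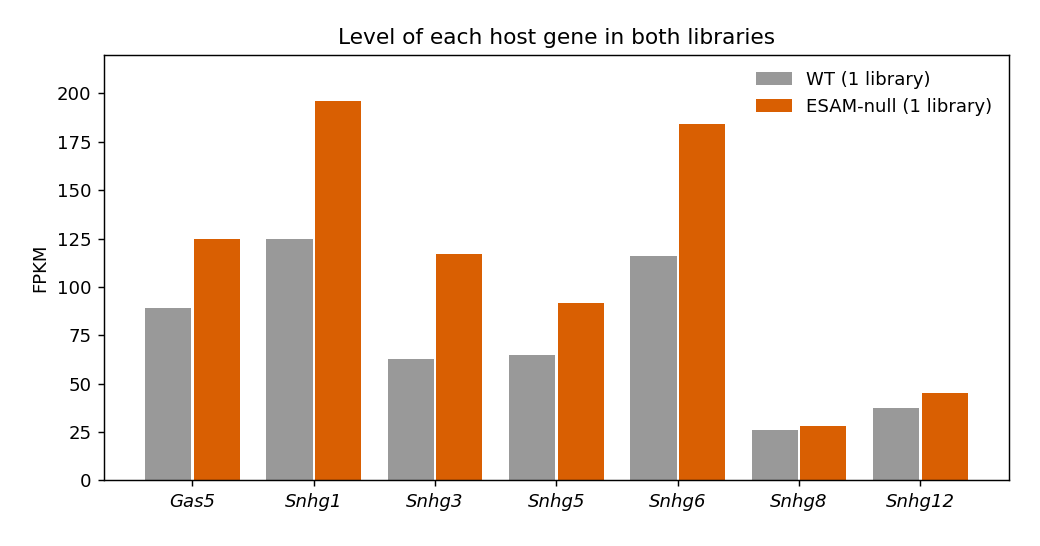
Level of each host gene in FPKM (vertical axis, from 0) in the WT library (grey) and the ESAM-null library (orange), 1 library each and so without error bars. The orange bar is the taller one for all 7 genes, with the widest gap at Snhg1 (125 and 196 FPKM) and the narrowest at Snhg8 (26.1 and 28.2 FPKM).

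None of the 7 host genes was 2-fold higher or 2-fold lower in ESAM-null. Over the 12066 genes measured, 7.42% were 2-fold higher and 12.8% 2-fold lower, and over the 7321 genes with at least 10 FPKM in either library, where all 7 host genes lie, these shares were 2.75% and 4.75%. All 7 had a ratio of ESAM-null to WT above 1, where 50.0% of measured genes and 56.0% of those with 10 FPKM did. At 1.5-fold, 3 of 7 were higher and 0 lower, beside 14.6% and 12.4% of the genes with 10 FPKM. The median log2 ratio of the host genes was 0.49, against 0.08 over the genes with 10 FPKM and -0.00 over all measured genes. Summed over the 7 genes, the level was 521 FPKM in WT and a total of 787 FPKM in ESAM-null, a ratio of 1.51, or 0.0692% and 0.0864% of each library's total FPKM.

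Snhg3, the host of both Snora73 copies, differed most. It was listed at 62.5 FPKM in WT, about 139 reads, and 117 FPKM in ESAM-null, about 284 reads. The ratio was 1.87 (95% counting interval 1.53 to 2.32), and 96.1% of the genes with 10 FPKM had a lower one. ESAM-null was the higher library by more than counting error, and the interval reaches past 2-fold.

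Snhg6, the host of Snord87, was listed at 116 FPKM in WT and at 184 FPKM in ESAM-null, a ratio of 1.59 (1.35 to 1.90). Snhg1, which holds Snord22 and 7 box C/D or related snoRNAs, was listed at 125 FPKM in WT and at 196 FPKM in ESAM-null, a ratio of 1.57 (1.40 to 1.77). These are the host genes with the highest levels in both libraries, and their ratios exceed those of 89.5% and 88.8% of the genes with 10 FPKM.

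Gas5, named for its accumulation in growth-arrested cells and known as an RNA that binds the glucocorticoid receptor, was listed at 89.2 FPKM in WT and at 125 FPKM in ESAM-null. Its ratio was 1.40 (1.33 to 1.49), from about 1975 and 3020 reads if its form of 2556 bases is assumed. With the spliced form of 12 exons and 502 bases, a choice made after seeing the data, about 253 and 387 reads would stand behind it and the interval would be 1.20 to 1.65. Snhg5, the Snord50 host, was listed at 65.0 FPKM in WT and at 91.6 FPKM in ESAM-null, a ratio of 1.41 (1.26 to 1.58). Both were higher in ESAM-null beyond counting error, and about 80.3% and 80.6% of the genes with 10 FPKM had lower ratios.

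Snhg12, the host with both classes of snoRNA, was listed at 37.6 FPKM in WT and at 45.1 FPKM in ESAM-null, a ratio of 1.20 or a log2 ratio of 0.26 (-0.06 to 0.59). Snhg8, the host of Snora24, was listed at 26.1 FPKM in WT and at 28.2 FPKM in ESAM-null, a ratio of 1.08 (0.859 to 1.36). For these host genes of the lowest level the interval includes equality, and these reads did not resolve a difference. With each library's upper quartile set equal, Snhg8 turned to a log2 ratio of -0.08, and with each library rescaled to a total of 1000000, Snhg8 was at -0.17 and Snhg12 at -0.02, so that 6 and 5 of the 7 host genes remained above 1 beside 41.1% and 33.8% of the genes with 10 FPKM. The counts of host genes at least 1.5-fold higher were then 1 and 1, Snhg3 in both cases, beside 6.68% and 4.74% of the genes with 10 FPKM.

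**Figure D3:**
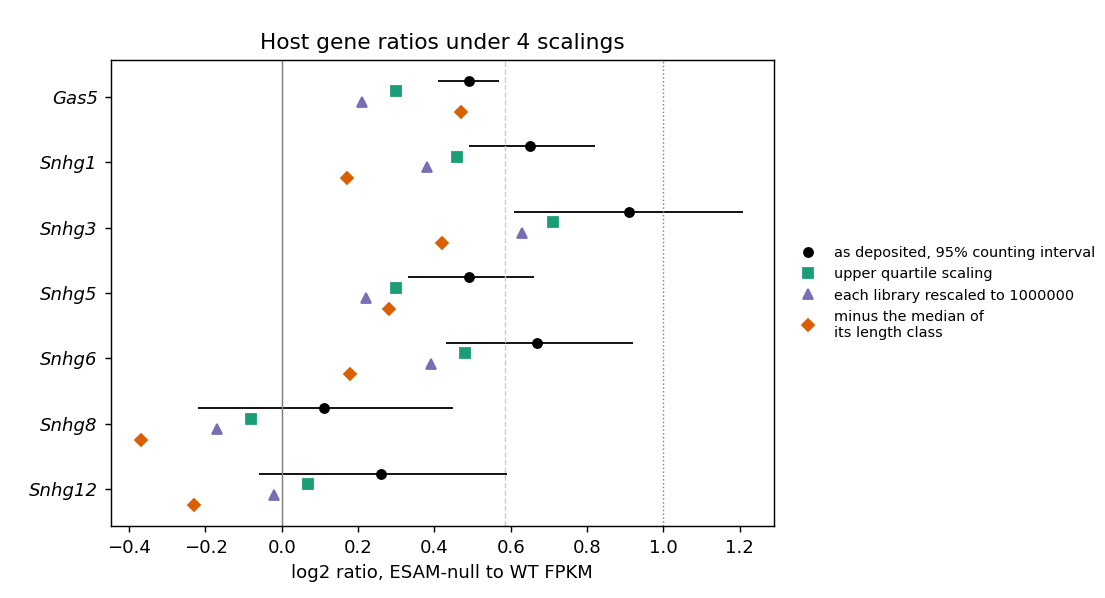
Log2 of the ESAM-null over the WT FPKM (horizontal axis) of each host gene as deposited with its 95% counting interval (black), after upper quartile scaling (green squares), after rescaling to a total of 1000000 (purple triangles) and minus the median of its length class (orange diamonds). The vertical lines mark equality, 1.5-fold and 2-fold. As deposited the 7 points lie between 0.11 and 0.91, and the points of Snhg8 fall below 0 under the other 3 settings.

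Transcript length moved with the ratio across the libraries. Among genes with at least 10 FPKM, the median log2 ratio was 0.49 for the 701 genes with spliced transcripts up to 1000 bases, 0.21 for 1942 genes of up to 2000 bases, 0.02 for 3101 genes of up to 4000 bases and -0.16 for 1518 longer genes. In the shortest class 40.5% of genes were at least 1.5-fold higher and 80.9% had a ratio above 1, and without ribosomal protein genes its median was 0.46. Snhg1 (605 bases), Snhg3 (437 bases), Snhg6 (400 bases), Snhg8 (776 bases) and Snhg12 (606 bases) fall in this class, Snhg5 (1004 bases) in the next and Gas5 (2556 bases) in the third.

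Measured from the median of their own class, Snhg3 was 0.42 higher on the log2 scale, Snhg6 0.18 and Snhg1 0.17, while Snhg12 was at -0.23 and Snhg8 at -0.37. Gas5 was 0.47 and Snhg5 0.28 above their class medians. Gas5 has 25 annotated forms of 346 to 2556 bases, 20 of them with a kept intron, and its shorter forms would place it in the first class. Snhg5, at 1004 bases, lies just past the edge of the first class, and its forms range from 440 to 1221 bases. The log2 ratios of Gas5 and Snhg5, 0.49 each, equal the first class median of 0.49. Placed in that class, neither would stand above its median. In the share of the class at a lower ratio, Snhg3 stood at 89.0%, Gas5 at 84.9%, Snhg5 at 76.6%, Snhg6 at 69.5%, Snhg1 at 67.6%, Snhg12 at 29.7% and Snhg8 at 22.3%. The part of transcript length in the host gene ratios was not tested.

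**Figure D4:**
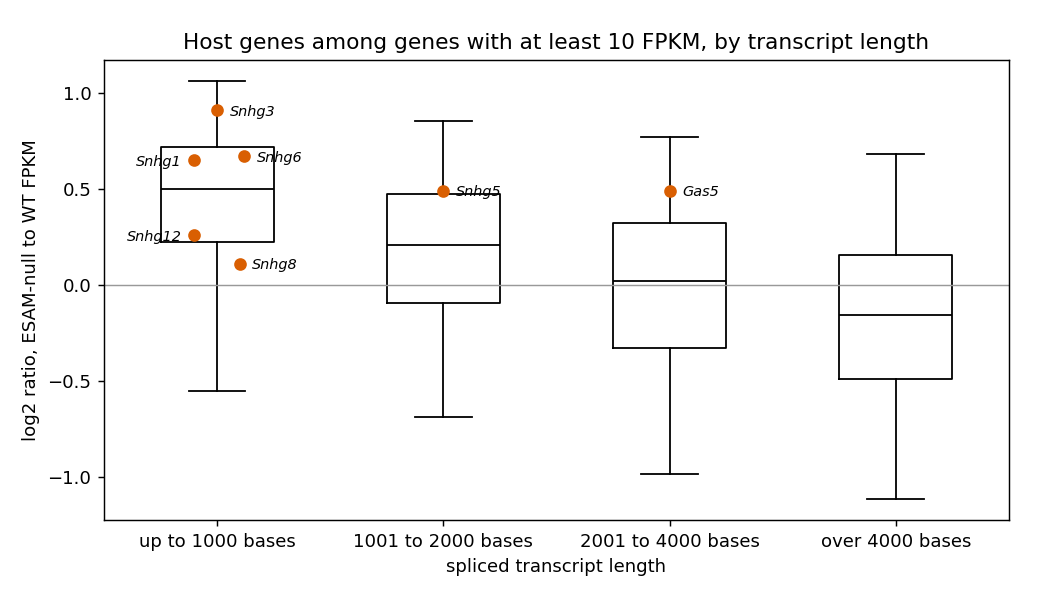
Log2 of the ESAM-null over the WT FPKM (vertical axis) for genes with at least 10 FPKM in either library, in 4 classes of spliced transcript length. Boxes span the quartiles with the median as a line, whiskers reach from the 5th to the 95th percentile, and orange points are the 7 host genes. The class medians go down from 0.49 to -0.16, and Snhg8 and Snhg12 lie below the median of their class.

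Reads of a host gene can be shared with other genes, and the kit's reads were not described as strand-specific. Snhg3 shares 5592 bases of its span and its strand with Rcc1, which encodes the exchange factor of the GTPase Ran. Rcc1 was listed at 47.8 FPKM in WT and at 47.1 FPKM in ESAM-null, a ratio of 0.986 (0.902 to 1.08), whereas Snhg3 was at 1.87. Gas5 overlaps Zbtb37, a zinc finger gene on the opposite strand, by 428 bases. Zbtb37 was listed at 0.894 FPKM in WT and at 2.62 FPKM in ESAM-null, and reads from this stretch cannot be told apart between the pair. On the opposite strand, the long noncoding RNA gene Gm17300 overlaps Snhg3 by 1611 bases and Mcmdc2 overlaps Snhg6 by 127 bases. Neither symbol had a row, so their part in the reads of Snhg3 and Snhg6 was not tested.

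Neighbouring genes did not all share the hosts' ratios. Slc3a2, the heavy chain of amino acid transporters, starts 105 bases from Snhg1 on the other strand and was listed at 63.1 FPKM in WT and at 70.9 FPKM in ESAM-null, a ratio of 1.12 (1.05 to 1.20). Wdr74, a ribosome assembly factor on the other side of Snhg1, was listed at 77.8 and 131 FPKM, a ratio of 1.68 (1.53 to 1.84). Trnau1ap, which encodes a protein bound to the selenocysteine tRNA, lies 738 bases from Snhg12 and was listed at 68.4 FPKM in WT and at 92.9 FPKM in ESAM-null. Its ratio was 1.36 (1.22 to 1.51), beside 1.20 for Snhg12. Beside Snhg3, Phactr4 was at 7.30 and 5.49 FPKM. The neighbours of Snhg5 were near equal between the libraries, with Syncrip at 36.8 and 38.8 FPKM and Zfp949 at 5.64 and 5.15 FPKM. Sgk3 beside Snhg6 was at 8.76 and 11.4 FPKM. Prss12 and Ndst3, on either side of Snhg8, and Serpinc1 beside Gas5 were below 1 FPKM in both libraries.

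The promoter letters of the host genes have features in common. The following stretches hold 60 bases before and 40 bases from the annotated start of 6 host genes (RefSeq, GRCm38.p6). They are shown for the box near the usual place of a TATA element and for the CTTT at the start, both in capitals, and for Gas5 the second of 2 annotated starts is given.
Gas5 (chr1:161035106-161035205, plus strand): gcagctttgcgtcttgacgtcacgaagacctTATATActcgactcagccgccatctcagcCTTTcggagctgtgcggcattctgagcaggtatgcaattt
Snhg1 (chr19:8723427-8723526, plus strand): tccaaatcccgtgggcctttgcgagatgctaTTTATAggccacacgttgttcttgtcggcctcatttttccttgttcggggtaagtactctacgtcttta
Snhg3 (chr4:132353647-132353746, minus strand): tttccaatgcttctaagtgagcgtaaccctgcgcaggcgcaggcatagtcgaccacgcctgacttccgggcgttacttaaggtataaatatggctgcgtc
Snhg5 (chr9:88522858-88522957, minus strand): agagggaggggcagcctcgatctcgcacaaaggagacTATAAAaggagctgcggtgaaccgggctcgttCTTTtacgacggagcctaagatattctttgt
Snhg8 (chr3:123508297-123508396, minus strand): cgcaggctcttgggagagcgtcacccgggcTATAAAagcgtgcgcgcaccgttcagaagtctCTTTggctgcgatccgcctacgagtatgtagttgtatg
Snhg12 (chr4:132308618-132308717, plus strand): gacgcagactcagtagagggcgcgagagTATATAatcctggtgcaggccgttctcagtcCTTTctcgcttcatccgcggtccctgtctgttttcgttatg
Counting both Gas5 starts there were 7 promoter stretches, and Snhg6 had no entry. TATAAA, searched on both strands, was found within 60 bases before the start in 3 of the 7 (Snhg1 on the opposite strand, Snhg5 and Snhg8), against 3.92% of 32851 promoters. TATATA was found in Gas5 and Snhg12, against 1.56%, so that 5 of 7 held either and 5.01% of all promoters and 4.05% of 74 of ribosomal protein genes did. The boxes began 23 to 32 bases before the start. CTTT, searched on the gene's strand from 10 bases before to 20 after the start, was found in Gas5, Snhg5, Snhg8 and Snhg12, against 11.6% of all promoters and 27.0% of those of ribosomal protein genes. The motifs were chosen after the sequences were seen, and the matches are a description of letters. Snhg3, the host with the largest ratio, held neither in these windows and had TATAAA only after its start, and Snhg8, with the smallest, held both.

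Rows listed under snoRNA symbols were sparse, and they are not read as levels of the mature snoRNAs, which lack the poly(A) tail. Of the 27 snoRNAs inside the host genes, 9 had a row, and 7 of these, among them Snord47, Snord87, Snora61 and Snord99, were listed at 0 in both libraries. Snord22, inside Snhg1, was listed at 170.0 FPKM in WT and at 62.5 FPKM in ESAM-null, and Snora24, inside Snhg8, at 30.6 FPKM in WT and 0 in ESAM-null. Both rows were lower in ESAM-null, beside a ratio of 1.57 for Snhg1 and one of 1.08 for Snhg8 whose interval includes equality. Snora24 lies in the exon of the RefSeq-matched Snhg8 form, so reads there cannot be told apart between the Snora24 and Snhg8 rows. For features this short a few fragments give a high FPKM, so no fold is given. Among all 118 snoRNA rows, 31 were above 0 in WT and 19 in ESAM-null, with 18 above 0 in both. Of all 23284 genes listed, 14305 were above 0 in WT and 13039 in ESAM-null.

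The other noncoding snoRNA host genes, a list of 13 with a row, were more mixed than the 7. Of 12 measured, 2 were 2-fold higher, 1 was 2-fold lower and 9 were neither, with a median log2 ratio of 0.32. Snhg4 was listed at 12.8 FPKM in WT and at 26.3 FPKM in ESAM-null, and Rian at 0.755 and 1.56 FPKM. Meg3, a maternally expressed RNA of the imprinted cluster that also holds Rian, was listed at 14.8 FPKM in WT and at 3.41 FPKM in ESAM-null, a ratio of 0.230 (0.208 to 0.253). Snhg15, listed as Gm11974, was at 107 and 205 FPKM, and Zfas1, listed as 1500012F01Rik, at 106 and 171 FPKM. Snhg17 (9430008C03Rik) was at 18.2 and 25.1 FPKM, Snhg7 at 15.1 and 19.7 FPKM and Snhg10 at 10.9 and 13.1 FPKM. Below 1 were Snhg16 (1810032O08Rik) at 58.7 and 56.7 FPKM, Snhg9 at 97.1 and 83.7 FPKM, Snhg20 (2810008D09Rik) at 139 and 114 FPKM and Dancr (2700023E23Rik) at 18.8 and 11.2 FPKM. Snhg11 was listed at 0.712 FPKM in WT and 0 in ESAM-null. Under upper quartile scaling and rescaling to 1000000, none of this list was 2-fold higher, and its median was 0.13 and 0.04.

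Protein-coding genes that hold snoRNAs numbered 216 measured, of which 9 were 2-fold higher, 16 were 2-fold lower and 191 neither, with a median of 0.18. They split by whether they encode ribosomal proteins. The 30 that do had a median of 0.67 with none past 2-fold, and the other 186 a median of 0.10 with 9 higher and 16 lower. For these 186 the median turned to -0.09 under upper quartile scaling and to -0.18 with totals rescaled, with 4 higher and 23 lower in the latter case. Cks2, a partner of cyclin-dependent kinases, was listed at 243 FPKM in WT and at 502 FPKM in ESAM-null, and Tbxas1, the thromboxane synthase, at 43.5 FPKM in WT with a ratio of 0.334. Zfp934 was at 5.36 and 13.7 FPKM, Chd3, a chromatin remodeler, at 12.1 and 4.43 FPKM and Alkbh8, a tRNA-modifying enzyme, at 17.8 and 8.79 FPKM.

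Ribosomal protein genes share the pyrimidine start of many host genes and were listed higher in ESAM-null almost throughout. Of 81 measured, 80 had a ratio above 1, as deposited and under each of the 4 scalings. As deposited, 56 were at least 1.5-fold higher, beside 2095 of all 12066 measured genes. A 2-fold higher level was listed for 1, beside 895 of all measured. That gene, Rpl39l, was at 0.355 FPKM in WT and at 4.57 FPKM in ESAM-null and was picked after its values were seen. The list's median was 0.69, above the 0.49 of the host genes. Under upper quartile scaling and with totals rescaled it was 0.50 and 0.41, beside 0.30 and 0.22 for the host genes. Rps24 was at 784 and 1532 FPKM, Rpl36a at 938 and 1814 FPKM, Rpl7a at 707 and 888 FPKM, and Rpl30, the exception below 1, at 66.8 and 61.0 FPKM. Most of these transcripts are short too, and the 51 measured genes that hold no snoRNA had the same median of 0.69.

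Proteins that bind or assemble snoRNAs had a median of 0.36, with 17 of 19 above 1 and 1 past 2-fold. That gene was Znhit3, an assembly factor of box C/D particles, listed at 43.2 FPKM in WT and at 109 FPKM in ESAM-null. Nhp2, a core protein of H/ACA particles, was at 186 and 311 FPKM. Pih1d1 was at 122 FPKM in both libraries and Rpap3 at 27.1 and 22.7 FPKM, both parts of the assembly machinery.

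The 16 factors of nonsense-mediated decay and the exon junction, which act on spliced host RNAs, had a median of -0.08, with 3 at least 2-fold lower and 0 higher. Smg9, listed as 1500002O20Rik, was at 23.3 FPKM in WT and at 9.96 FPKM in ESAM-null. The others, Dhx34 at 8.14 and 3.28 FPKM and Nbas at 3.35 and 1.26 FPKM, were named after their values were seen. Upf1, the central helicase of the pathway, was at 39.0 and 25.8 FPKM, Upf3a at 42.7 and 55.4 FPKM and Magoh, of the exon junction complex, at 252 and 425 FPKM.

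Among 15 regulators of mRNAs with a pyrimidine start and of mTORC1, 1 was 2-fold lower and 0 higher, with a median of -0.35. It was Mtor, the kinase itself, at 4.31 FPKM in WT and at 1.29 FPKM in ESAM-null, named after its values were seen. The count of lower genes was 2 under median ratio and trimmed mean scaling and 3 under upper quartile scaling and the rescaling. Eif4ebp1, an mTORC1 substrate that represses translation, was at 217 and 309 FPKM, Eif4ebp2 at 14.1 and 7.53 FPKM and Mlst8 at 12.4 and 6.25 FPKM. Of 17 genes of ribosomal RNA transcription, Max, the partner of Myc, was 2-fold lower at 35.5 and 16.7 FPKM, and 0 were higher, with a median of 0.23. Npm1, the nucleolar protein nucleophosmin, was at 968 and 1552 FPKM, Taf1a at 11.8 and 18.7 FPKM and Polr1a, the largest subunit of RNA polymerase I, at 11.6 and 6.31 FPKM.

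The glucocorticoid receptor and its target genes were listed because of what is known of Gas5. Of 11 measured, 1 was 2-fold higher, 2 were 2-fold lower and 8 neither, with a median of -0.07. Mt2, a metallothionein, was at 9.44 FPKM in WT and at 52.4 FPKM in ESAM-null, and Fkbp5 at 18.5 and 27.6 FPKM. Klf9, at 2.53 and 0.925 FPKM, and Errfi1, at 3.58 and 0.0347 FPKM, were lower and were named after their values were seen. Nr3c1, the receptor itself, was at 6.86 and 4.01 FPKM, a ratio of 0.585 (0.498 to 0.688), and Per1 at 8.38 and 4.22 FPKM, and both were also named after their values were seen. At 1.5-fold 4 of the list were lower and 1 higher, beside 2632 lower and 2095 higher of all 12066 measured genes. Zfp36, at 159 and 151 FPKM, and Sgk1, with a ratio of 0.906, were near equal.

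Long noncoding RNAs that host no snoRNA had a median of -0.32 over 11 measured, with 8 below 1, while 2 were 2-fold higher and 2 lower. Neat1, the scaffold of paraspeckles, was listed at 11.3 FPKM in WT and at 2.99 FPKM in ESAM-null, and Tug1 at 23.6 and 10.5 FPKM. Malat1, of nuclear speckles, was at 382 and 263 FPKM. These transcripts are 20771 (Neat1), 6719 (Tug1) and 6983 (Malat1) bases long, in the length class whose median was -0.16. H19, an imprinted RNA, was higher at 55.8 and 127 FPKM, and so was Jpx, listed as Enox, at 0.889 and 2.29 FPKM, which was named after its values were seen.

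**Figure D5:**
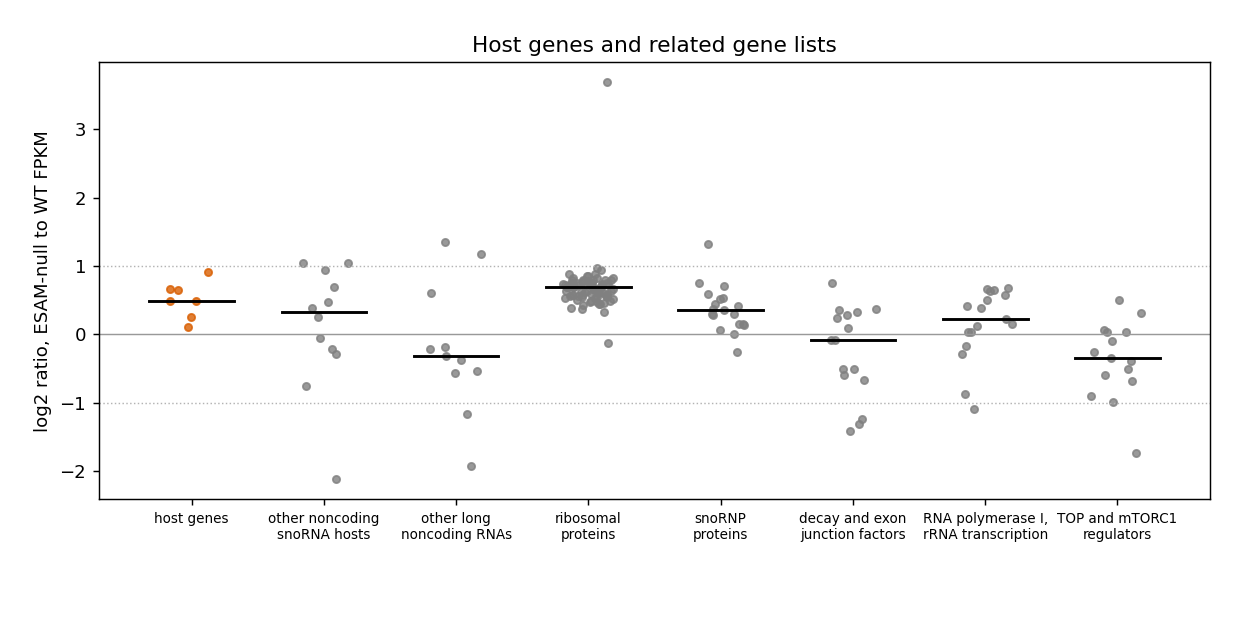
Log2 of the ESAM-null over the WT FPKM (vertical axis) of the 7 host genes (orange) and of the measured genes of 7 related lists (grey), with the median of each list as a bar. Dotted lines mark 2-fold. The host genes lie between 0.11 and 0.91 with a median of 0.49, below the ribosomal protein genes at 0.69 and above the other long noncoding RNAs at -0.32.

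The genes nearest to each host gene in the levels of both libraries (Euclidean distance of log2 FPKM over 2 libraries) were 1110058L19Rik, Brp44l and Pfdn1 for Gas5, Pam16, Ruvbl2 and Naa38 for Snhg1, Snrpb2, Snf8 and Mrpl51 for Snhg3, and Vti1b, Eid1 and Pnp for Snhg5. Those for Snhg6 were Uchl3, Gstp1 and Lta4h, those for Snhg8 Hsph1, Tapbpl and Usp3, and those for Snhg12 Cpsf3l, Mars and Sec23b. The nearest pair of all was Snhg6 (116 and 184 FPKM) and Uchl3 (116 and 183 FPKM). With 2 libraries, such nearness says only that both levels were alike.

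Esam, the deleted gene, was listed at 118 FPKM in WT and at 12.1 FPKM in ESAM-null. All 8 HSC markers were measured in both libraries and none passed 2-fold, with summed levels of 698 FPKM in WT and of 704 FPKM in ESAM-null. Of 4 measured erythroid markers 3 were 2-fold lower, and their sums came to 18.7 FPKM in WT and to 3.10 FPKM in ESAM-null, the WT library being the higher. Sums of measured markers were 39.0 and 37.1 FPKM for hepatocytes (4 of 6 measured), 19.3 and 23.6 FPKM for macrophages (3 of 6) and 15.4 and 17.7 FPKM for endothelial cells (3 of 5). Alb, the leading hepatocyte gene, was listed at 1.04 FPKM in WT and 0 in ESAM-null, and Fgb at 0 in both. Apoa1 was at 1.09 and 7.52 FPKM and Afp at 4.35 and 6.69 FPKM. In ESAM-null, the macrophage markers Emr1, C1qa and Vcam1 were at 0, while Cd68 was at 14.2 FPKM in WT with a ratio of 1.41 and Csf1r at 2.17 and 3.59 FPKM. Among endothelial markers Lyve1 was at 0 in ESAM-null and Kdr at 1.33 and 0.780 FPKM. Cdh5 was at 0.954 and 3.33 FPKM and Stab2 at 0.0401 and 0.492 FPKM. Plvap, at 13.1 and 13.6 FPKM, made up most of the endothelial sums. Trf, at 32.5 and 22.8 FPKM, made up most of the hepatocyte sums. Fewer cells of a type and less RNA per cell cannot be told apart in such pooled cells, and the part of other cell types in the host gene ratios was not tested.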

How the data were processed

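LSK CD48- cells from E14.5 FL were measured by RNA-seq in 1 WT and 1 ESAM-null library. Per the labels, cDNA was made with the SMART-Seq v4 kit and sequenced single-end at 75 bp. Values in the deposited tables are FPKM per gene symbol, as made by the authors. According to the submitters' processing notes the tools were Cuffnorm 2.2.1, SAMtools 0.1.19, Bowtie2 2.2.3 and TopHat2 2.0.13, on the mm10 build. The sources used here do not state the annotation, the library normalization setting or how multiply mapped reads and strand were handled. All columns of values were used.

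The plain ratio of FPKM, ESAM-null to WT, was computed. A gene counted as measured if either library listed 1 FPKM or more, and was counted past 2-fold. Approximate reads came from FPKM, transcript length (GENCODE M21, RefSeq, found for 98.1% of all genes) and the value of 1 read, with an assumed fragment length of 200 ± 80 bases. The values rest on about 9402799 reads (WT) and 10234479 reads (ESAM-null), and 66.4% and 73.8% of low genes checked lay within 0.05 of a whole read. Intervals are exact (Clopper-Pearson for ratios, Poisson for levels). The steps were run on simulated reads that held counting error only and larger planted changes than those of the host genes. That run did not cover the length trend, PCR copies or the choice of transcript form.

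The members and lists were chosen with earlier results of these data known. The length classes and motifs were chosen after the values and sequences were seen. Named genes were the members, every other noncoding host gene, the 2 lowest and 2 highest ratios and any past 2-fold among list genes with 10 FPKM, of which the text gives most, the neighbours and the 3 nearest genes in level. Alternatives were 4 scalings, pseudocounts of 0.1 and 1, other filters and thresholds, and leaving out each member. The scripts ran under Python 3.11.15 with scipy 1.17.1, numpy 2.4.6, matplotlib 3.10.9 and pandas 2.3.3.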

Additional observations from a re-analysis of the deposited data

How the results depend on the processing

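The median log2 ratio of the 7 host genes, 0.49, was 0.30 under upper quartile scaling and 0.22 with each library rescaled to a total of 1000000. With each gene centred on its length class, an alternative chosen after seeing the data, it was 0.18. That value rests on the classes given to Gas5 and Snhg5. The median was 0.47 and 0.48 under median ratio and trimmed mean scaling, and between 0.49 and 0.57 when each host gene was left out in turn. Upper quartile scaling and the rescaling lower all log2 ratios by 0.19 and 0.28 by construction. No host gene was 2-fold higher under any scaling or filter. At 1.5-fold 3 were as deposited and under median ratio and trimmed mean scaling, beside 14.6%, 13.6% and 13.8% of the genes with 10 FPKM. Under upper quartile scaling and the rescaling 1 was, beside 6.68% and 4.74%. Of 49 alternatives for single host gene ratios, 13 moved the value outside its counting interval.

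The counts of all genes 2-fold lower (1540) and higher (895) became 3264 and 1343 with no filter, 639 and 343 at 5 FPKM, 761 and 437 with 1 FPKM in both libraries, 2632 and 2095 at 1.5-fold and 877 and 490 at 3-fold. Median log2 ratios of protein-coding hosts changed sign, from 0.18 to -0.01 (upper quartile) and -0.09 (rescaled), as did that of ribosomal RNA transcription genes, from 0.23 to -0.05 (rescaled).

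No paired analysis was possible because there is 1 library per genotype. The depth limits Snhg8 and Snhg12, with about 141 to 187 reads per library, to differences larger than their counting intervals.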
